A study of Homo sapiens with 3 samples.

Results

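The CCDC154 locus lies near the end of the short arm of chromosome 16. It was taken as 6 named genes of the 60609 in each count table: CCDC154, the unnamed gene ENSG00000279930 that overlaps it, and the neighbours CLCN7, C16orf91, UNKL and TELO2. The first 2 were picked because their counts were higher with both hairpins than in the control. The other 4 were picked by position, to see whether neighbours differed too. The fold changes of the members over the control are therefore descriptions, and counts of members past a test stand beside the share of all genes with nothing read from them. The RNA came from NCI-H209, a human cell line established from a small cell lung cancer and here carrying a doxycycline-inducible lentiviral hairpin. Libraries sh490 and sh1362 each carried a different hairpin against YES1, a Src-family tyrosine kinase, and shGFP carried a hairpin against GFP as the control. Doxycycline (1 µg/mL, renewed every 2 days) was given in all 3 cases, the control included, and each hairpin is represented by a single library. Whether the infected cells were a pool or a clone, and how long doxycycline was given, is not given in the sources used here.

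Total counts were 4899006 in shGFP and between 7421552 and 7791747 in the hairpin libraries. A count of 0 allows up to 3 counts, or 0.385 to 0.612 CPM, the counts scaled to a common library size, in these libraries. The targeted gene, YES1, went with the labels: 1465 counts in shGFP against 163 with sh490 and 216 with sh1362. All 8 markers of neuroendocrine small cell cancer that were checked were detected, with a summed level of 3207 CPM in shGFP, 3665 with sh490 and 4581 with sh1362. Of these 8 markers 4 were higher with both hairpins and 0 were lower with both. Among the 11634 genes averaging at least 5 CPM these shares were 33.8% and 34.4%. INSM1, which had the largest rise of the 8 with each hairpin, was at 109.4 CPM in shGFP, 199.3 with sh490 and 367.7 with sh1362. CHGA, NCAM1, NEUROD1 and SYP lay below the control with sh490 and above it with sh1362. The summed level of the 8 red cell markers was 735.1 CPM in shGFP against 18.8 to 20.4 with the hairpins. Nearly all of it was HBB, HBA1 and HBA2, while 2 of the 8, AHSP among them, were at 0 in all 3 libraries. In the whole series, the genes that passed edgeR's test were YES1, HBB, HBA1 and HBA2, each lower with both hairpins. The 8 leukocyte markers summed to 7.44 CPM in shGFP and 2.02 to 2.98 with the hairpins. Of these 8 markers 3, CD3E and ITGAM among them, were at 0 in all 3 libraries. The 5 fibroblast markers summed to 6.77 to 9.33 CPM, nearly all of it COL1A1, with DCN at 0 in all 3. Genes of the mitochondrial genome took 5.47% of counts in shGFP, 5.50% in sh490 and 7.78% in sh1362. The part of these differences in the values below was not tested. In bulk RNA, fewer cells that transcribe a gene and less RNA of it per cell cannot be told apart.

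CCDC154 encodes a coiled-coil domain protein, and its mouse counterpart lies in a region linked to bone resorption. CLCN7 encodes a chloride and proton exchanger of the lysosome that works with the subunit OSTM1; loss of either causes osteopetrosis, in which osteoclasts fail to resorb bone. TELO2 is a subunit of the TTT complex, which with the R2TP chaperone stabilises large kinases such as ATM and MTOR. C16orf91, now named UQCC4, is an assembly factor of mitochondrial complex III. UNKL is a zinc finger protein related to the RNA-binding protein UNK. ENSG00000279930 is a single-exon gene of the class TEC in GENCODE, a class for transcripts that still await experimental evidence.

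The 6 genes spread over 147.3 kb of GRCh38, 4 on the minus strand and 2 on the plus strand. UNKL (ENSG00000059145.18) is at chr16:1363205-1414751, C16orf91 (ENSG00000174109.5) at chr16:1419752-1420756 and CCDC154 (ENSG00000197599.12) at chr16:1434383-1444556, all on the minus strand. CLCN7 (ENSG00000103249.18) is at chr16:1444934-1475084 on the same strand, so that CLCN7 ends 377 bases before CCDC154 begins. ENSG00000279930 (version 1) is at chr16:1437154-1439315 on the plus strand, wholly within the span of CCDC154, and TELO2 (ENSG00000100726.15) is at chr16:1493344-1510457, also on the plus strand. Of the 16 exon blocks of CCDC154, 5 lie inside ENSG00000279930, and the genes share 642 exon bases. These are 23.6% of the exon bases of CCDC154 and 29.7% of those of ENSG00000279930.

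Reads were counted without strand, and a read touching exons of both genes was left out of both. The reads credited to CCDC154 therefore came from exons on either side of ENSG00000279930, 872 bases toward the end of the gene and 1212 bases toward its start. The bases of ENSG00000279930 that are no CCDC154 exon number 1520, in 6 stretches of 50 to 663 bases. In a stretch between CCDC154 exons, only reads lying wholly within it were credited to ENSG00000279930. The first and last stretches end at the gene's own edges. Reads running past those edges into CCDC154 intron alone were credited to it too. Of the 6 stretches 3 are shorter than 100 bases, and the read length is not given in the sources used here. Each of these stretches is an intron of CCDC154, or part of one. A read of the unnamed plus-strand transcript and a read of unspliced CCDC154 RNA would be counted alike there, and the tables cannot tell them apart. To show how closely the genes are interleaved, 300 bases of the plus strand are printed from the GENCODE release 29 transcript of ENSG00000279930 (GRCh38, chr16:1438600-1438899); the 231 capitals are bases that are also CCDC154 exons, read from the opposite strand.
ENSG00000279930, part: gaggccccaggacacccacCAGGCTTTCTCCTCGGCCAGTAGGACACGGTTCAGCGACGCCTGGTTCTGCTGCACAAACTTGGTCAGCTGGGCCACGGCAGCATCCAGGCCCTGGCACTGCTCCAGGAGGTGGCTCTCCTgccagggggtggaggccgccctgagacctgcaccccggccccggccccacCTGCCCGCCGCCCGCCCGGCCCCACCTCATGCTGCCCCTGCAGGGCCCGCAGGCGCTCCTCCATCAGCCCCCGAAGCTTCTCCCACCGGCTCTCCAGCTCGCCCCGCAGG
The 50 lower-case bases between the capitals are the shortest stretch that belongs to the unnamed gene alone.

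**Figure D1:**
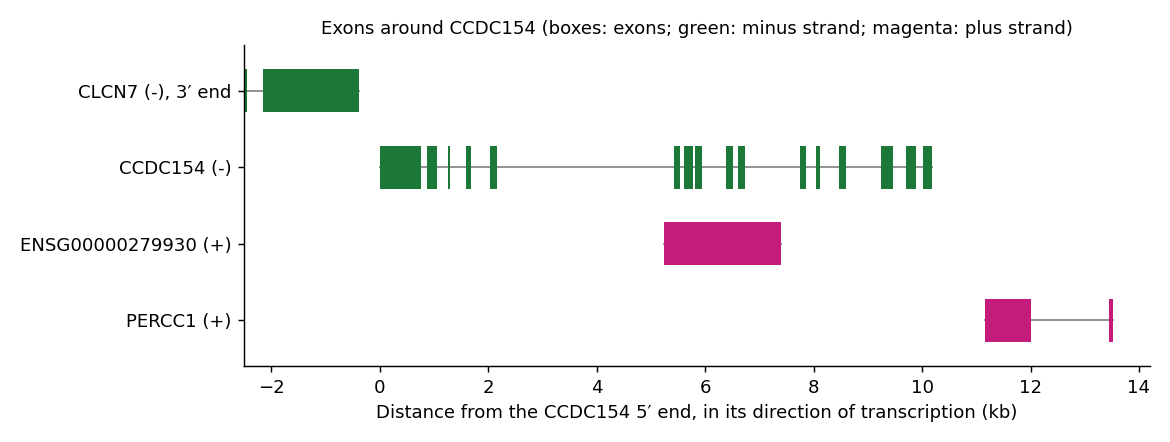
Exon map around CCDC154, with distance from the CCDC154 5′ end in kb along its direction of transcription; boxes are exons, green on the minus strand and magenta on the plus strand. ENSG00000279930 covers 5 of the 16 CCDC154 exon blocks, the last exon of CLCN7 stops 377 bases before CCDC154 starts, and PERCC1 lies 985 bases beyond its end.

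CCDC154 and the unnamed gene were several-fold higher with both hairpins. CCDC154 had 46 counts in shGFP, 270 with sh490 and 311 with sh1362, or 9.51, 34.1 and 42.1 CPM. Both hairpin libraries lay above the control, as the choice of this gene required. The level was 3.58 times the control with sh490 (exact 95% counting interval 2.61 to 5.01) and 4.43 times with sh1362 (3.24 to 6.17). All such intervals cover counting error only, because amplified reads carrying no molecular identifier can repeat a molecule, and no replicate library exists to give the spread within a hairpin.

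The unnamed gene was counted 22 times in shGFP, 175 times with sh490 and 255 times with sh1362, at 4.55, 22.1 and 34.5 CPM. It too was lowest in shGFP, at 4.85 times the control with sh490 (3.11 to 7.94) and 7.59 times with sh1362 (4.91 to 12.3). Of the reads credited to either gene, the unnamed gene took 39.3% in sh490 (exact binomial 95% interval 34.8 to 44.0), 45.1% in sh1362 (40.9 to 49.3) and 32.4% in shGFP (21.5 to 44.8). The 3 intervals overlap, which is no test of whether the shares differ, and none was made. Per kilobase belonging to one gene alone, ENSG00000279930 had 14.5 counts in shGFP, 115.1 with sh490 and 167.8 with sh1362, against 22.1, 129.6 and 149.2 for CCDC154. These densities divide by all bases of one gene alone, including stretches too short to hold a whole read, so they do not rank the genes.

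UNKL, whose nearest end is 19631 bases from CCDC154, was the next highest member. Its counts were 35 in shGFP, 114 with sh490 and 186 with sh1362, or 7.24, 14.4 and 25.2 CPM. The control was again the lowest library, and the level was 1.99 times the control with sh490 (1.35 to 2.99) and 3.48 times with sh1362 (2.42 to 5.15). With a log2 fold of 0.96 for sh490, UNKL was just short of a 2-fold difference with both hairpins. Scaled by library totals alone, that log2 fold was 1.004. UNKL shares 909 of its 7494 exon bases with GNPTG on the plus strand, which had 26 counts in shGFP, 54 with sh490 and 81 with sh1362. GNPTG encodes a subunit of the enzyme that tags lysosomal proteins, and was 1.27 times the control with sh490 (0.780 to 2.11) and 2.04 times with sh1362 (1.30 to 3.31).

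CLCN7, upstream of CCDC154 on the same strand, differed far less. It reached 55 counts in shGFP, 140 with sh490 and 123 with sh1362, or 11.4, 17.7 and 16.7 CPM. Both hairpin libraries lay above the control, at 1.55 times (1.13 to 2.16) and 1.46 times (1.06 to 2.05). The counting intervals of the control, 8.57 to 14.8 CPM, and of sh1362, 13.8 to 19.9, overlap, which is no test of their difference. CLCN7 shares 1307 of its 7623 exon bases with annotated antisense genes, which were credited with 1 read in all 3 libraries together. Reads touching the shared bases were credited to neither side, so this count does not measure antisense RNA there.

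C16orf91, between UNKL and CCDC154, lay close to the control. Its 36 counts in shGFP, 68 with sh490 and 52 with sh1362 came to 7.44, 8.58 and 7.04 CPM. The control lay between the hairpin libraries, with ratios of 1.15 (0.759 to 1.78) and 0.946 (0.607 to 1.49). TELO2, on the far side of CLCN7, was counted 25 times in shGFP, 51 times with sh490 and 20 times with sh1362, at 5.17, 6.43 and 2.71 CPM. Its ratios to the control lay on opposite sides of 1, at 1.24 (0.757 to 2.10) with sh490 and 0.524 (0.276 to 0.983) with sh1362. Both genes rest on few reads. Apart from TELO2 with sh1362 these intervals spanned 1. They cover counting error only, so they are no test of a difference from the control, for TELO2 with sh1362 either.

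**Figure D2:**
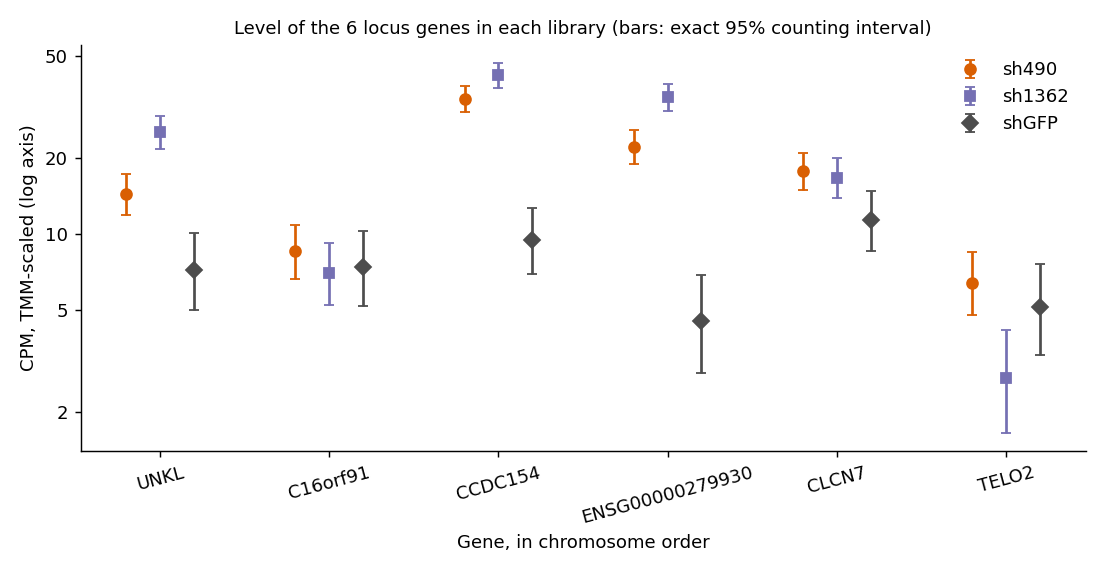
Level of each gene in the 3 libraries as CPM on a log axis, genes in chromosome order, with exact 95% counting intervals as bars and 1 library per point. For CCDC154, ENSG00000279930, UNKL and CLCN7 the shGFP diamond lies below both hairpin points. For C16orf91 and TELO2 it lies between them.

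By size, 2 of the 5 members with a mean of 5 CPM or more were at least 2-fold higher with both hairpins, namely CCDC154 and ENSG00000279930. Over all 11634 genes at that mean the share was 0.808%, and 0 members were at least 2-fold lower with both, beside 0.593% of genes. With sh490 alone the same 2 members were at least 2-fold higher, beside 1.4% of genes, and with sh1362 alone these and UNKL, 3 in all, beside 3.29%. Since the first 2 were picked for that difference, nothing is read from these shares. The rule works on log2 CPM with a prior count of 2 added, on which CCDC154 was at 1.81 and 2.11, ENSG00000279930 at 2.21 and 2.85, UNKL at 0.96 and 1.76, CLCN7 at 0.62 and 0.54, C16orf91 at 0.20 and -0.08, and TELO2 at 0.30 and -0.86. Just inside the threshold lay DNAI4, with a smaller log2 fold of 1.0007, and just outside it PSKH1, with 0.997. TELO2, at a mean of 4.77 CPM, was outside the count. Ranked by the smaller of the 2 log2 folds, ENSG00000279930 was at place 2, CCDC154 at 6, UNKL at 107, CLCN7 at 551 and C16orf91 at 4889 of the 11634 genes. The members' median log2 folds were 0.79 with sh490 and 1.15 with sh1362, beside 0.00 and -0.01 over the 11634 genes. These medians include the 2 genes picked for being higher, so nothing is read from them about the locus as a whole. Of the 6 members tested by edgeR's quasi-likelihood method, 0 passed a Benjamini-Hochberg adjusted p under 0.05 for both hairpins against shGFP, where 0.0255% of 15708 genes did. In that fit 357 genes were higher and 327 lower at an unadjusted p under 0.05, and DESeq2 and limma-voom also called 0 members. With the filter on low counts left off edgeR called 2, CCDC154 and ENSG00000279930, both higher, beside 0.21% of 27622 genes in either direction and 0.0796% higher. These are the genes picked for being higher, so the calls are no support for the difference. Replicate cultures are not stated for either hairpin. A gene's own residual spread in the test comes from the 2 hairpin libraries alone, because shGFP is the only library of its group. Differences between the hairpins, the cultures and the libraries are mixed in that spread and cannot be told apart.

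**Figure D3:**
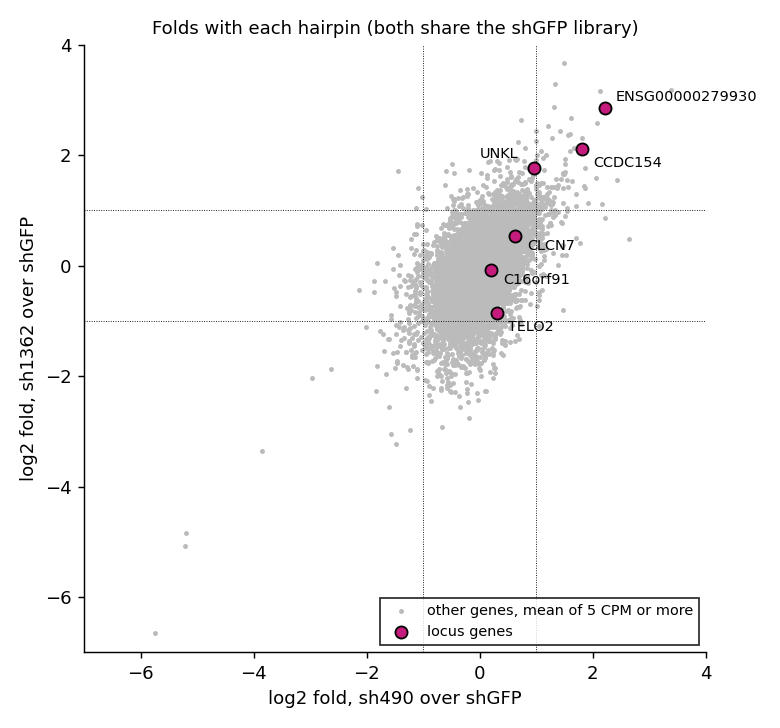
Log2 fold over shGFP with sh490 (x axis) and with sh1362 (y axis) for genes averaging 5 CPM or more, in grey, and the 6 locus genes, in magenta; dotted lines mark 2-fold. Both axes share the shGFP library, the single control; CCDC154 and ENSG00000279930 lie beyond 2-fold on both axes and UNKL on the y axis.

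The hairpins were compared with each other, a contrast that does not use the control. CCDC154 was 0.809 times as high with sh490 as with sh1362 (0.685 to 0.955), and ENSG00000279930 0.639 times (0.524 to 0.778). UNKL was 0.571 times as high with sh490 (0.448 to 0.725), so all 3 were higher with sh1362. CLCN7, at 1.06 times (0.826 to 1.36), and C16orf91, at 1.22 times (0.837 to 1.78), had intervals spanning 1. TELO2 lay the other way, 2.38 times as high with sh490 (1.39 to 4.21). Over the 11634 genes 5.9% were at least 2-fold apart between the hairpins. Mitochondrial-genome counts were also higher in sh1362, at 7.78% against 5.50% in sh490, and their part in these ratios was not tested. With 1 library per hairpin the ratios compare libraries, and no test was made.

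To see how far along the chromosome the difference reached, every gene within 500 kb of CCDC154 was listed. Of 82 such genes 50 had at least 1 read, and 14 besides the members had a mean of 5 CPM or more. None of these 14 was at least 2-fold higher or lower with both hairpins, beside 0.808% higher and 0.593% lower over the 11634 genes. At such shares 14 genes are too few to show where the difference ends. Higher values with both hairpins, of any size, were seen for 6 of the 14 (BAIAP3, GNPTG, NUBP2, EME2, FAHD1 and MSRB1) and lower values for 3 (JPT2, MAPK8IP3 and MRPS34). Over all 11634 genes the shares were 33.8% and 34.4%. The median log2 folds of the 14 were 0.21 with sh490 and 0.09 with sh1362. By edgeR 0 of the 20 tested non-members passed, with adjusted p from 0.986 to 1.000 (Benjamini-Hochberg). The test rests on 1 residual degree of freedom and can miss differences of 2-fold size, so these p-values do not show that the genes were unchanged.

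The measured genes on either side did not share one direction. GNPTG, which overlaps UNKL, was higher with both hairpins, as given above. TSR3, a ribosome biogenesis enzyme, had 5.55 CPM with sh490, 7.18 with sh1362 and 5.58 in shGFP, and BAIAP3, a regulator of dense-core vesicle traffic, 10.6, 7.58 and 6.41 in the same order. On the other side IFT140, a subunit of the ciliary transport complex, had 166.5, 127.9 and 157.5 CPM, and CRAMP1 21.7, 12.5 and 15.5. Farther out, JPT2 had 133.7, 138.0 and 142.2 CPM, MAPK8IP3, a motor adaptor, 17.7, 17.1 and 19.2, and the mitochondrial ribosomal gene MRPS34 41.7, 42.0 and 47.5. EME2, a subunit of a structure-specific nuclease, had 9.59, 16.5 and 8.06 CPM, 2.05 times the control with sh1362 (1.42 to 3.02) and 1.19 times with sh490 (0.798 to 1.80). NUBP2 had 7.69, 7.18 and 5.79 CPM, HAGH 39.1, 29.8 and 34.5, FAHD1 16.5, 23.6 and 12.8, and MSRB1 49.2, 60.0 and 41.8.

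PERCC1, next to CCDC154 on the side away from CLCN7, was singled out after its values had been seen. It is a small gene of 925 exon bases on the plus strand (ENSG00000284395.1, chr16:1431035-1433397), 985 bases beyond the end of CCDC154, and its regulatory region is known from a congenital diarrhoea. PERCC1 was counted 2 times in shGFP and 28 times with each hairpin, at 0.413 CPM in the control, 3.53 with sh490 and 3.79 with sh1362. The hairpin libraries were alike and the control lowest, with ratios of 8.54 (2.15 to 74.0) and 9.17 (2.31 to 79.4). Its mean of 2.58 CPM kept it out of the counts above. With genes down to a mean of 1 CPM included, an alternative added after PERCC1 had been seen, 1 of 19 non-members was at least 2-fold higher with both hairpins, beside 2.4% of 15346 genes. PERCC1 shares no exon base with another gene, but without strand its reads cannot be told apart from those of any minus-strand RNA there.

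**Figure D4:**
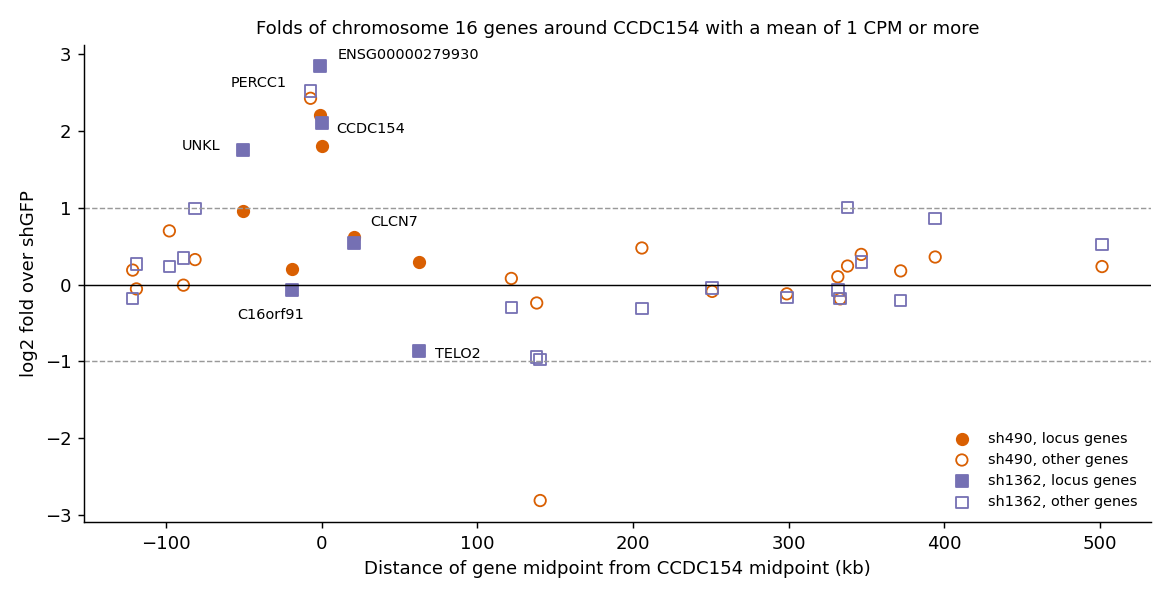
Log2 fold over shGFP with sh490 (circles) and sh1362 (squares) against the distance of each gene's midpoint from that of CCDC154, in kb, for genes within 500 kb with a mean of 1 CPM or more; filled symbols are the locus genes, dashed lines mark 2-fold. ENSG00000279930, PERCC1 and CCDC154 lie above 1 with both hairpins, C16orf91 lies at 0.20 and -0.08 between them and UNKL, and CLCN7 lies at 0.62 and 0.54; the lowest point is ENSG00000260954, with 1 count in sh490.

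Levels of different genes were set side by side only per length, as TPM, counts per exon base scaled to one sum in every library, over all exon bases. In shGFP the order was C16orf91 at 28.0 TPM, CCDC154 at 13.2, ENSG00000279930 at 7.96, CLCN7 at 5.64, TELO2 at 4.61 and UNKL at 3.65. In sh490 CCDC154, at 48.6 TPM, and ENSG00000279930, at 39.7, stood above C16orf91 at 33.2, CLCN7 at 9.02, UNKL at 7.47 and TELO2 at 5.91. In sh1362 ENSG00000279930, at 56.9 TPM, and CCDC154, at 55.1, led, ahead of C16orf91 at 25.0, UNKL at 11.98, CLCN7 at 7.79 and TELO2 at 2.28. CCDC154 was thus above CLCN7, the gene before it on the same strand, in all 3 libraries. CLCN7, TELO2 and UNKL in shGFP, rest on 25 to 55 counts each, and their order was not tested. Reads touching the 642 exon bases that CCDC154 and ENSG00000279930 share were credited to neither. The TPM therefore do not rank CCDC154 and ENSG00000279930 against each other in any library.

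Overlapping genes were also checked for pairs that were both higher. At a mean of at least 5 CPM there were 1676 pairs with overlapping spans, and in 2 of them, 0.119%, both genes were at least 2-fold higher with both hairpins. These were CCDC154 with ENSG00000279930, picked for being higher, and PIP5K1B with PABIR1. With genes down to a mean of 1 CPM included, the pairs were 7 of 3333, or 0.21%. Of the 94 genes that were at least 2-fold higher, 21 overlapped another measured gene and 4 overlapped a gene that was also higher. Over all 11634 genes 0.808% were at least 2-fold higher with both hairpins. How many such pairs unrelated genes would give was not worked out. Of 23 TEC genes averaging at least 5 CPM, 1 was at least 2-fold higher with both hairpins, ENSG00000279930 itself, and the median log2 folds of the 23 were -0.02 with sh490 and 0.28 with sh1362. Single-exon genes lying within another gene's span, a class where intronic reads would be counted, took 0.360% of all counts in shGFP, 0.366% with sh490 and 0.377% with sh1362. Of 91 of them averaging at least 5 CPM, 2 were at least 2-fold higher with both hairpins.

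The start regions of CCDC154 and CLCN7 are printed because the genes stand in line on one strand and yet differed by unlike amounts. Each is 300 bases, from 250 before to 50 after the start, from RefSeq (GRCh38.p14, minus strand); the windows are chr16:1444507-1444806 for CCDC154 and chr16:1474979-1475278 for CLCN7. Entries were found for 5 of the 6 members. Capitals mark every match on either strand to the E-box CACGTG, to the CCAAT box, to the GC box GGGCGG or to the TATA motif TATAAA. The longer palindromic CLEAR element of lysosomal genes, which holds the E-box within it, was searched too.
CCDC154, promoter: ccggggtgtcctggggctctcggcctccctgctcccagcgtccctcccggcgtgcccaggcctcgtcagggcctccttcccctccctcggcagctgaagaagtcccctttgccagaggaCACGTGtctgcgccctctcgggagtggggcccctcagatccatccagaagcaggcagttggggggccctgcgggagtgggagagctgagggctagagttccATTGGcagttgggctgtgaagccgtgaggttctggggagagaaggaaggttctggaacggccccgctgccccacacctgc
CLCN7, promoter: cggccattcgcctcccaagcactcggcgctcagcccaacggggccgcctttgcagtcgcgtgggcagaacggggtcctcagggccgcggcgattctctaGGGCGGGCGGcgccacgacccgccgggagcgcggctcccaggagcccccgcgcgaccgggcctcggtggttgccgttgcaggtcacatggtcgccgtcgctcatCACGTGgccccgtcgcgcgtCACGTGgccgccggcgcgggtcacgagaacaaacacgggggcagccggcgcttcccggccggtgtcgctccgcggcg
The CCDC154 window held 1 E-box and 1 CCAAT box, the latter on the opposite strand, and no match to the other 3. The CLCN7 window held 2 E-boxes and 2 overlapping GC boxes. Among 35116 promoters of the same length, 7.26% held the E-box, 34.6% the CCAAT box, 44.95% the GC box, 11.5% the TATA motif and 0.353% the CLEAR element. The CCDC154 window had 67.7% G and C and 14 CpG dinucleotides, beside medians of 58.7% and 14 over all promoters. CLCN7 had 75.3% and 49, so the CpG density of the CCDC154 start was at the median of all promoters and that of CLCN7 above it. Of the other windows, TELO2 held 1 E-box and 4 GC boxes and C16orf91 none of the motifs. The UNKL entry lies at another start, inside the span given above, and is not described.

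Genes that work with the neighbours' products were taken from lists that hold the neighbours too. Of 12 CLC exchanger and osteopetrosis genes 10 were tested by edgeR and 0 passed; 4 were higher and 4 lower with both hairpins among 10 with a mean of 5 CPM or more, with median log2 folds of 0.00 and 0.06. Over all genes at that mean 33.8% were higher and 34.4% lower with both, and nothing particular to this list or the next ones is read from their counts. OSTM1, the partner of CLCN7, had 11.9 CPM in sh490, 14.4 in sh1362 and 11.8 in shGFP. Of 13 genes of the TTT complex, the R2TP chaperone and their client kinases 0 passed, and 7 of 12 with a mean of 5 CPM or more were lower with both hairpins and 0 higher. TTI1, a partner of TELO2, had 62.6, 59.7 and 70.9 CPM, and TTI2, the other, 22.8, 25.5 and 24.6. Of 18 complex III genes 0 passed, with 4 higher and 9 lower of 17. Among assembly factors UQCC1 lay at -0.08 (sh490) and 0.38 (sh1362) on the log2 scale, UQCC2 at 0.12 and 0.21, and UQCC3 at -0.66 and -0.33. SMIM4, another assembly factor, was counted 8 times in shGFP, 31 times with sh490 and 34 times with sh1362, 2.36 times (1.06 to 5.95) and 2.78 times (1.26 to 6.96) the control, at a mean of 3.39 CPM. UNK, the relative of UNKL, had 27.4, 22.5 and 19.4 CPM, above the control with both hairpins, by log2 0.49 and 0.21, less than UNKL. For 3 of these 4 lists, UNKL with UNK being the exception, the median log2 folds lay between -0.28 and 0.06, beside 0.00 and -0.01 over all genes.

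The genes whose pair of log2 folds lay nearest to that of CCDC154 were on other chromosomes. Likeness was the straight-line distance between the 2 log2 folds of a gene and those of CCDC154, over 3 libraries that include the shared control and all genes averaging at least 5 CPM. The 8 nearest were RAB40B at 0.15, LINC01963 at 0.19, FAM241A at 0.21, BLOC1S6 at 0.34, G0S2 at 0.35, ATOH8 at 0.36, COL11A1 at 0.36 and LINC02228 at 0.41. RAB40B, a small GTPase, was counted 11 times in shGFP, 62 times with sh490 and 81 times with sh1362. BLOC1S6, a subunit of a complex that sorts cargo to lysosome-related organelles, had the most reads of the 8, with 114 counts in shGFP, 538 with sh490 and 671 with sh1362, or 2.88 and 3.85 times the control. ENSG00000279930, which overlaps CCDC154, was not among the 8.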

How the data were processed

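RNA was sequenced from 3 libraries of NCI-H209 cells. What the authors deposited are whole read counts for each gene, not normalized. Per the submitters' processing notes, STAR 2.6.1c, FastQC 0.11.8 and GRCh38 were used; per the file headers, featureCounts 1.6.0 counted reads over GENCODE release 32 exons. No option for strand, read pairs or multiple overlap was recorded there, so the defaults applied. Depth was 4899006 to 7791747 counts per library; intervals cover counting error only.

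The members and gene lists were chosen with earlier results of these data known. Gene names came from symbols matched to 60295 of 60609 identifiers, and biotypes from GENCODE release 29 (58489 matched). CPM were scaled by TMM in edgeR 4.0.16 (R 4.3.3); log2 folds used a prior count of 2. Intervals were exact Poisson, or exact binomial for ratios and shares (SciPy 1.17.1). TPM used all exon bases. Both hairpins were tested against shGFP with edgeR's robust quasi-likelihood F test, two-sided, filterByExpr defaults and Benjamini-Hochberg adjustment over 15708 genes. The spread rested on 1 residual degree of freedom, and shGFP, a single library, was taken to vary as the hairpin libraries did. The test was tried on simulated data. Named genes were the members, the window genes averaging at least 5 CPM, the 8 genes with the most similar pair of folds, YES1, and list genes at least 2-fold apart with both hairpins or direct partners. Alternatives were other scalings, prior counts, filters, tests (DESeq2 1.42.0, limma 3.58.1), windows and lengths. Some of the genes named by these rules are not reported here.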

Additional observations from a re-analysis of the deposited data

How the results depend on the processing

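The members' log2 folds moved by at most 0.11 under DESeq2 size factors, library totals, TMM without the globin genes, or prior counts of 0.5 and 5. No sign changed among these 12 values under any of the 5 settings. UNKL with sh490 went from 0.96 to 1.004 with library totals, and was at 1.77 with sh1362 there. It was thus past the 2-fold threshold with both hairpins in that setting. Among the other window genes, TSR3 with sh490 went from -0.01 to 0.03 with library totals, and PERCC1, counted 2 times in shGFP, from 2.43 to 2.89 and 1.88 with sh490 at prior counts of 0.5 and 5. Mean log2 folds over both hairpins, when sh490 or sh1362 was left out, ran from 1.81 to 2.11 for CCDC154, 2.21 to 2.85 for ENSG00000279930, 0.96 to 1.76 for UNKL, 0.54 to 0.62 for CLCN7, -0.08 to 0.20 for C16orf91 and -0.86 to 0.30 for TELO2. Counts past the test over all genes depended on the tool and filter. Against 0 higher and 4 lower as reported, DESeq2 gave 1 higher, limma-voom 2 lower, and edgeR with low counts kept 22 higher and 36 lower; the cause was not tested. Of 94 genes at least 2-fold higher with both hairpins, 54 had a mean of 10 CPM or more; down to 1 CPM there were 368 higher and 210 lower, against 69 lower at 5 CPM. Window genes outside the members that were higher with both numbered 2 within 250 kb and 18 within 1000 kb, against 6, and those lower 1 and 9, against 3; more genes lie in a wider window. Down to 1 CPM, an alternative added later, 5 were lower. With the exon bases of one gene alone as length, CCDC154 was at 60.4 TPM in sh490 and 68.6 in sh1362, and ENSG00000279930 at 53.7 and 77.2. No paired analysis was possible because the labels give no replicate numbers and the control has 1 library.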
